A study of Mus musculus with 10 samples.

Results

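The kinesin genes of the mouse were followed through 2 RNA sequencing experiments on alternative splicing. Members were all splicing events in the deposited N2A table whose gene symbol begins with Kif or Kifc and a digit: 3023 events in 42 genes, of 661162 events in all. Exons made up 933 of them and introns 861, and the rest were alternative splice sites (714 at the 3′ and 515 at the 5′ end of an intron). The pattern also takes in Kif1bp, a kinesin binding partner that is not a motor, and Kif16bos, a transcript from the strand opposite Kif16b. Rows of the same genes were read from a deposited list of neural microexons and from a deposited comparison of neurons. In the first experiment N2A cells, a mouse neuroblastoma line, were transfected with pooled siRNAs targeting Qk (siQk, n = 3) or with a non-targeting siRNA pool (siNT, n = 3). Each pool was used at 40 nM, wells had been seeded with 100000 cells, and RNA was collected after 72 h. The other experiment used glutamatergic neurons differentiated in culture from mouse embryonic stem cells: at day 7, 100 uM cycloheximide was added for 12 h (n = 2), or no drug (n = 2). The replicates are labelled as biological, but nothing given here says whether they came from separate cultures, so p-values measure the spread between these samples.

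Kinesins are motor proteins that use ATP to move along microtubules. Most carry cargo such as vesicles, organelles and mRNA toward the plus end, which in an axon points away from the cell body; members of the kinesin-14 family move toward the minus end, and several other families build or take apart the mitotic spindle. Neurons depend on kinesin-1, kinesin-2 and kinesin-3 motors for transport along axons and dendrites, and alternative exons can change the stalk, hinge or tail of a motor. Qk (Quaking) is an RNA-binding protein that regulates splicing, and microexons are exons of 3 to 27 nt, many of them included mainly in neurons.

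The exons on which the results turn are shown with the 15 bases on either side of them in the spliced transcript, read 5′ to 3′ on the coding strand from GENCODE M21 transcripts. Capitals mark the exon, and lower case marks the neighbouring exons. The first 2 were included more after Qk knockdown, and the Kif21a exon and the 24 nt exon of Kif1a were counted as different between untreated and cycloheximide-treated neurons. The other Kif1a exons, not counted, are shown for their flanking bases.
Kif13a 105 nt exon, chr13:46760663-46760767, minus strand: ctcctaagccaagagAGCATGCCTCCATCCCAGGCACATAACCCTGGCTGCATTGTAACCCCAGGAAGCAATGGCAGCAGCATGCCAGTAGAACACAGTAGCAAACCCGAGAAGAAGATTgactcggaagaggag
Kif1b 42 nt exon, chr4:149261160-149261201, minus strand: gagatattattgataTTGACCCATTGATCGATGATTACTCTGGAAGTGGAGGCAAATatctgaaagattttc
Kif21a 21 nt exon, chr15:90964975-90964995, minus strand: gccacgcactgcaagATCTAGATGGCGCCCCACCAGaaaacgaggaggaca
Kif1a 24 nt exon, chr1:93026832-93026855, minus strand: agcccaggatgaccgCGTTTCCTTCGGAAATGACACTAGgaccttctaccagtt
Kif1a 27 nt exon, chr1:93034546-93034572, minus strand: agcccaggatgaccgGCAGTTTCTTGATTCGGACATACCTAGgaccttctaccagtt
Kif1a 27 nt exon, chr1:93065552-93065578, minus strand: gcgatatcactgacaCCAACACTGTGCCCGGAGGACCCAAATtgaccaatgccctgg
The Kif1a exons of 24 nt and of 27 nt at 93034546 had the same 30 of 30 flanking bases, so each is annotated between the same neighbouring exons. The other Kif1a exon, at 93065552, was preceded by bases identical at 11 of 15 to those before the Kif1b 42 nt exon, which lies in the paralogous gene.

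Percent spliced in (PSI) gives how much of a gene's RNA at that point contains the exon, the intron or the splice site. Of the 3023 kinesin events, 1955 had at least 10 reads in all 6 N2A libraries, and 484 had no read in any sample. Most of the covered events were not alternative in these cells: 949 had a mean PSI under 2% and 832 a mean over 98%. The remaining 174 events, in 26 genes, were tested: 45 cassette exons in 16 genes, 67 introns, 32 alternative 3′ sites and 30 alternative 5′ sites. Among the 45 tested exons, 34 matched an exon of an annotated coding transcript at both ends and 29 were wholly coding. A length that is a multiple of 3 was found in 18.

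Exon-event reads totalled 26587150 to 80455750 per N2A library. Junction coverage of Qk, the reads of a gene's exon events scaled to library size (CPM), was 85.4 ± 4.71 in siNT and 11.2 ± 2.60 in siQk (SD, n = 3 each), in the direction the labels give. Markers of neuroblastoma and neurons were present, with 11 of the 13 listed genes in the table at a mean of at least 20 reads, although the neurofilament genes Nefl and Nefm were near 0. The summed coverage of the listed markers ranged from 1830 to 1877 CPM in siNT and from 2217 to 2353 CPM in siQk. Not all were higher in siQk: Ddc averaged 34.7 CPM in siNT and 16.1 in siQk, Th 25.5 and 22.7, and Gata3 11.7 and 10.5. Apart from these and the neurofilament genes, the listed markers had higher means in siQk. Markers of other cell types summed to 8.62 to 11.8 CPM in siNT and 12.3 to 15.7 CPM in siQk, with Aqp4, Mog and Epcam at 0 in every library. The neuron table holds microexon PSI alone, so the neurons were not checked against markers.

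An exon was included more often after Qk knockdown in each of 3 motors: Kif13a and Kif1b of the kinesin-3 family, and Kifc3 of the kinesin-14 family. These 3 of 45 tested cassette exons were called changed, at an adjusted p under 0.05 (limma, Benjamini-Hochberg over all 12930 tested exons) with a difference of at least 10 percentage points, against 1.18% of all tested exons. All 3 rose, against 0.75% of all tested exons that rose and 0.425% that fell. The lengths of the 3 exons are multiples of 3, as are those of 82.9% of all called exons and 42.7% of all tested exons. Of the kinesin exons, 10 of 45 had siNT and siQk values that did not overlap, against 14.6% of all tested exons. The median absolute difference was 2.94 points over the 45 kinesin exons and 1.82 points over all tested exons.

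**Figure D1:**
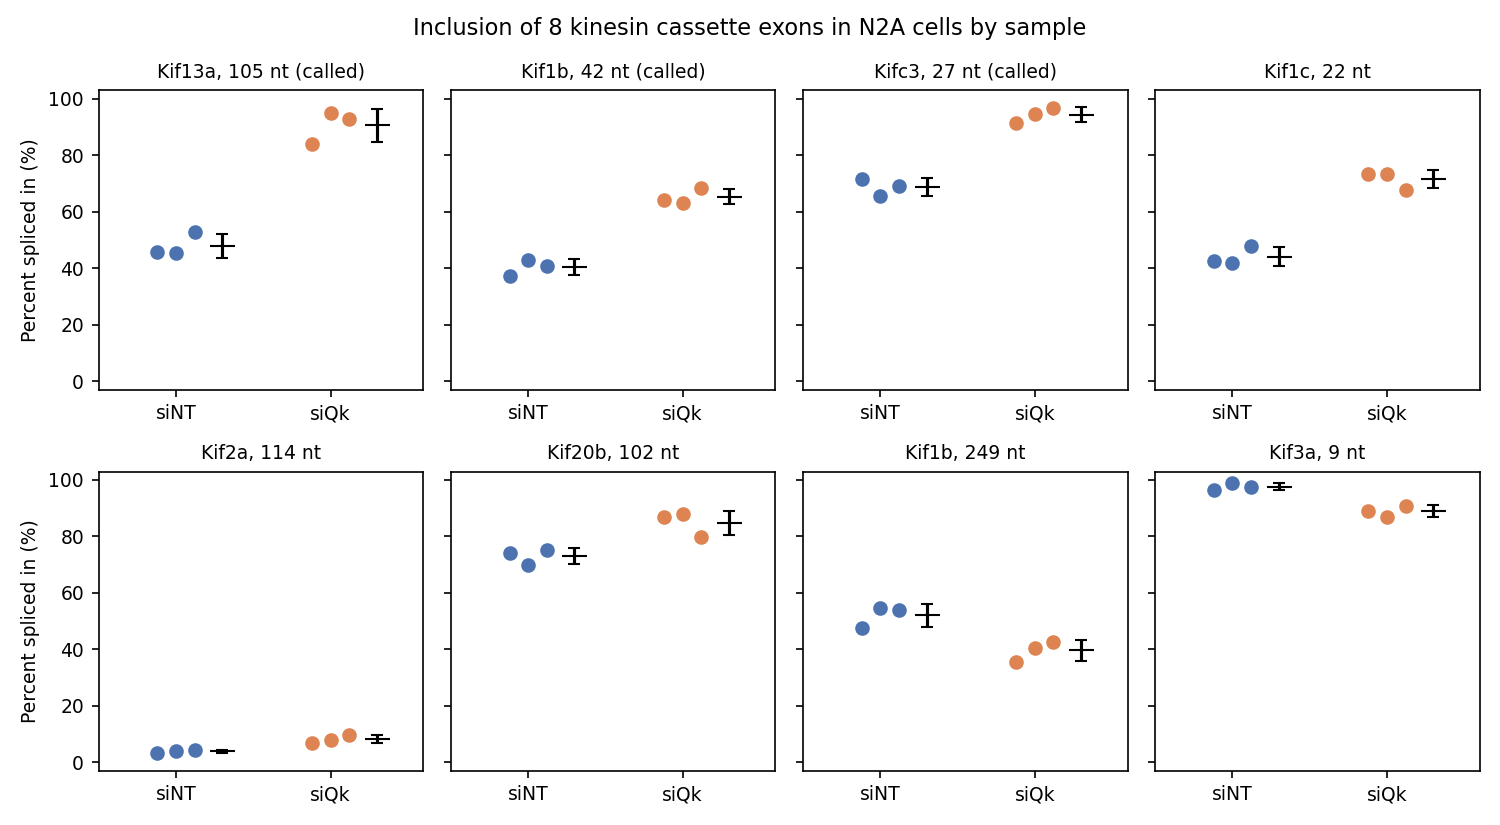
PSI in percent (vertical axis) of the 8 kinesin cassette exons with the smallest p-values in each N2A sample (dots: siNT in blue, siQk in orange), with the mean and SD of each group beside them. In all 8 panels the siNT and siQk dots do not overlap; Kif13a, Kif1b (42 nt) and Kifc3 were called changed, and the other 5 exons were not.

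Kif13a, a kinesin-3 motor that carries endosomal cargo, had the largest difference of the tested kinesin exons. Inclusion of its 105 nt exon was 45.8, 45.4 and 52.8% in the siNT samples and 83.9, 95.1 and 93.0% in the siQk samples, on 120 to 356 reads per sample. Every siQk sample lay above every siNT sample by a wide margin. The mean rose from 48.0% ± 4.18 to 90.7% ± 5.94 (SD, n = 3 each), a difference of 42.7 points with an adjusted p of 0.00234 in limma. The exon is exon 14 of transcript Kif13a-203, where all of it is coding, and 1 other coding transcript skips it. The same region was read a second way, through the intron of 8400 nt that contains this exon (chr13:46752873-46761272). Reads that splice across the whole of that intron numbered 85.2, 56.9 and 92.4 in siNT and 14.4, 4.06 and 14.8 in siQk. The siQk samples held fewer such reads than any siNT sample. Reads that retain the intron were few, at 1.03, 0 and 0.52 in siNT and 1.67, 1.28 and 4.37 in siQk. These counts are not scaled to library size: exon-event reads were lowest in siQk 1 (33750890) and siQk 2 (26587150) and highest in siQk 3 (80455750). This intron had 5.34 reads in siQk 2, under the minimum, and was tested only when that sample was left out; it was then called, at a PSI of 0.583% in siNT and 16.6% in siQk (limma, adjusted p = 0.0196). These junctions overlap those of the exon and are not separate evidence, and the intron was picked out after its values were seen.

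A shorter Kif13a exon of 39 nt (chr13:46780626-46780664), also wholly coding in 1 transcript, did not pass the test. Its inclusion was 15.9, 21.5 and 19.9% in siNT and 27, 29.8 and 25.3% in siQk, and the adjusted p was 0.540 in limma. Another Kif13a exon, of 78 nt, averaged 1.96% in siNT and 2.06% in siQk.

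Kif1b, a kinesin-3 motor of synaptic vesicle precursors and mitochondria, had 2 tested exons with differences of opposite sign, of which only the shorter was called. The 42 nt exon was included at 37.2, 42.9 and 41.0% in siNT and at 64.3, 63.3 and 68.3% in siQk, on 249 to 795 reads. The siNT and siQk values were separated by more than the range of either group. The mean rose from 40.4% ± 2.90 to 65.3% ± 2.66 (SD, n = 3 each; limma, adjusted p = 0.00323). It is exon 14 of transcript Kif1b-203 and is skipped in 2 coding transcripts. The 249 nt exon further along the gene (chr4:149220542-149220790) had values of 47.4, 54.7 and 53.9% in siNT and 35.5, 40.6 and 42.7% in siQk. Here every siQk sample lay below every siNT sample, with means of 52.0% ± 4.01 and 39.6% ± 3.74 (SD, n = 3 each), and the difference of -12.4 points had an adjusted p of 0.144 in limma. It was called on PSI values in place of log ratios (limma, adjusted p = 0.0410) and with weights for sampling variance (limma, adjusted p = 0.0332). It was not called without the filter on mean PSI (limma, adjusted p = 0.0779) or at a minimum of 20 reads (limma, adjusted p = 0.134). It is coding in 2 annotated transcripts, and no coding transcript was found to skip it.

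Kif1c, a kinesin-3 motor closely related to Kif1b, had a microexon of 22 nt (chr11:70723904-70723925) with a difference as large as those of the called Kif1b and Kifc3 exons but fewer reads. Its inclusion was 42.5, 41.9 and 47.9% in siNT and 73.6, 73.5 and 67.9% in siQk, on 27 to 118 reads. The groups did not overlap, and the means were 44.1% ± 3.31 and 71.6% ± 3.25 (SD, n = 3 each). The adjusted p was 0.0607 in limma, so it was not called. In limma it was 0.0179 on PSI values and 0.0323 with weights. It stayed above the threshold at a minimum of 20 reads (limma, adjusted p = 0.0545) and without the filter on mean PSI (limma, adjusted p = 0.353). No annotated coding transcript has an exon with these ends, and 4 skip this exon. Its length is not a multiple of 3. The authors' deposited list of neural microexons holds this exon with values of 44.5% in siNT and 70.5% in siQk, in its class of exons repressed by Qk, which takes in 18.1% of the list, and records no ACTAAC or ACTAAT motif beside it. The 1 other kinesin exon in the authors' deposited list, of 18 nt in Kif1b, is classed there as unchanged, at 97.4% in siNT and 98.0% in siQk. That list was made from the same N2A samples and is not independent of the values above.

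Kifc3, a minus-end directed kinesin-14 motor, gained inclusion of a 27 nt exon at the end of its coding region (chr8:95100647-95100673, minus strand). Its PSI was 71.5, 65.5 and 69.3% in siNT and 91.5, 94.8 and 96.8% in siQk, on 67 to 212 reads. No siQk sample came near the siNT range, and the mean rose from 68.8% ± 3.06 to 94.4% ± 2.65 (SD, n = 3 each; limma, adjusted p = 0.00738). The call was lost without siNT 2 (limma, adjusted p = 0.0663). In all 4 annotated coding transcripts with this exon the stop codon lies in it after 2 coding bases, as the end of the reading frame shows, with the bases that belong to the exon in capitals.
Kifc3 end of coding sequence: atccgaaggaaactgcagccgtcagCCTGA
The other Kifc3 exons tested, of 182 nt and 136 nt, averaged 56.2 and 57.5% in siNT and 54.3 and 58.0% in siQk.

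Among kinesin-2 motors, which work in axonal and ciliary transport, the 9 nt microexon of Kif3a (chr11:53590717-53590725) was the 1 exon tested. It was included at 96.5, 98.8 and 97.7% in siNT and at 88.9, 86.8 and 91.0% in siQk, on 30 to 116 reads. All siQk samples were lower than all siNT samples, yet the exon did not pass the test (limma, adjusted p = 0.353). It is coding in 3 annotated transcripts and skipped in 1.

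Kinesins of cell division and the centrosome supplied many of the tested exons and none of the calls. Of all tested exons 1.18% were called, so the lack of calls does not set these genes apart. Kif15, a spindle motor, had 9 tested exons and Kif24, a kinesin-13 of the centriole, had 7, with limma adjusted p-values of at least 0.703 in Kif15 and at least 0.765 in Kif24. Kif20b, a kinesin-6 motor of cytokinesis, had the 1 exon of these genes that differed by at least 10 points, of 102 nt: 74.0, 69.7 and 75.1% in siNT and 86.8, 87.8 and 79.9% in siQk. The groups did not overlap, with means of 72.9% ± 2.83 and 84.8% ± 4.29 (SD, n = 3 each; limma, adjusted p = 0.107). It was called without the filter on mean PSI (limma, adjusted p = 0.0498) and on PSI values (limma, adjusted p = 0.0436). It was not called with weights for sampling variance (limma, adjusted p = 0.105) or at a minimum of 20 reads (limma, adjusted p = 0.0973). An exon of 114 nt in Kif2a, a kinesin-13 motor that depolymerises microtubules, averaged 3.86% ± 0.450 in siNT and 8.10% ± 1.37 in siQk (limma, adjusted p = 0.0895). The 4 tested exons of Kif23, a motor of the central spindle, ranged from 41.2 to 97.7% in siNT with no call.

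No kinesin intron or alternative splice site was called. Over all tested events of each class the share called was 0.113% for introns, 0.101% for alternative 3′ sites and 0.107% for alternative 5′ sites. At an unadjusted p under 0.05 in limma there were 1 intron, 2 alternative 3′ sites and 4 alternative 5′ sites, and limma on PSI values also called none. The sites were pairs counted in both forms, which share a p-value. Over all tested events, 887 of 17664 introns, 482 of 9943 alternative 3′ sites and 385 of 7498 alternative 5′ sites had such a p-value. The kinesin intron was one of 133 nt in Kif18b, a mitotic kinesin-8, at 2.72% in siNT and 1.37% in siQk (limma, adjusted p = 0.982). The largest differences were in Kif4, a chromosome-bound kinesin-4, where an alternative 3′ site pair 4 nt apart and an alternative 5′ site pair 4 nt apart rest on nearly the same reads. The shorter form of the 3′ pair was used at 37.8, 29.7 and 49.9% in siNT and at 12.0, 12.0 and 29.0% in siQk, on as few as 13 reads. The groups did not overlap, but the nearest samples were less than 1 point apart (limma, adjusted p = 0.879). In Kifc5b, a kinesin-14, a 5′ site extending the exon by 13 nt was used at 1.11% ± 1.92 in siNT and 7.56% ± 4.37 in siQk (SD, n = 3 each; limma, adjusted p = 0.916).

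**Figure D2:**
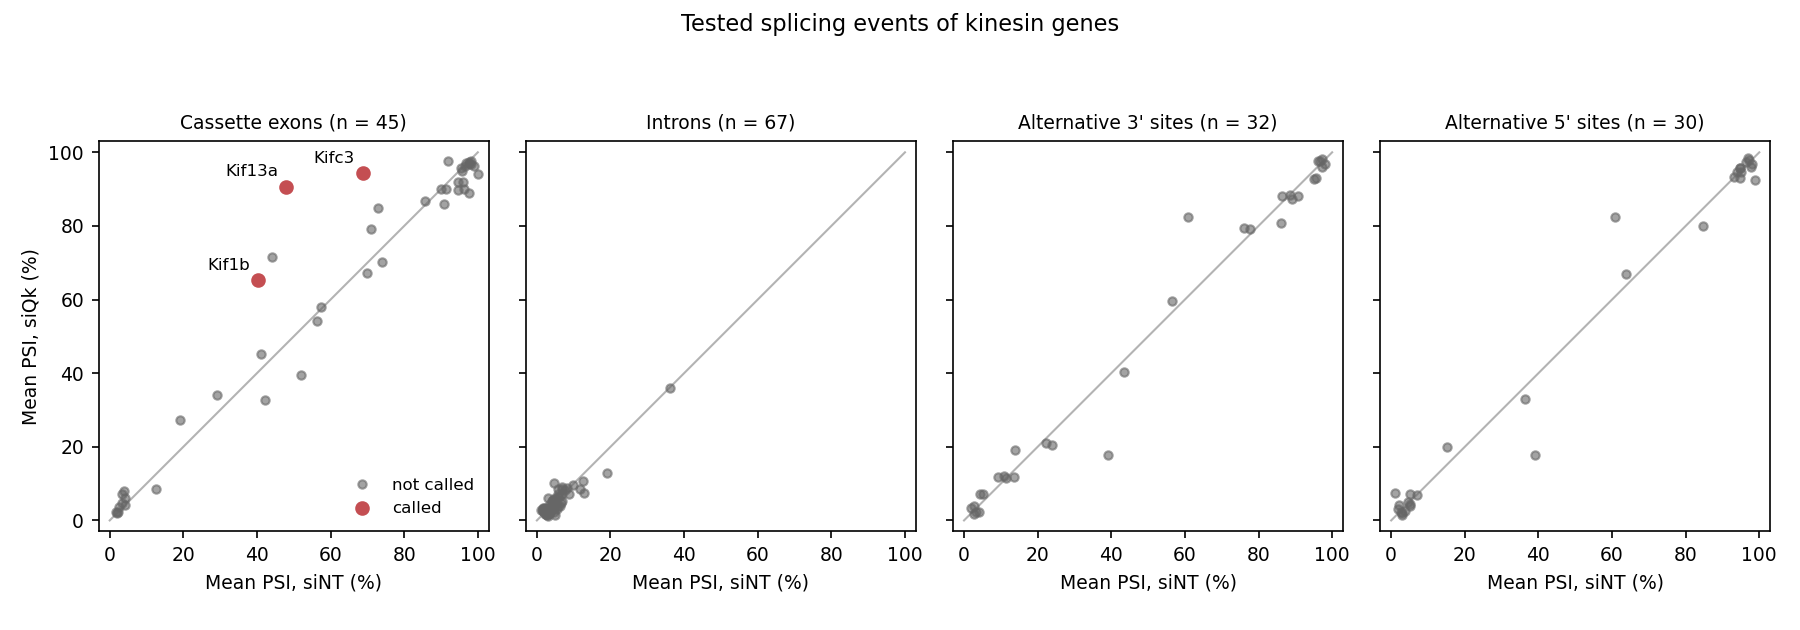
Mean PSI in siQk (vertical axis, percent) against mean PSI in siNT (horizontal axis, percent) for the 174 tested kinesin events, 1 panel per class, with the line of equal values. The called exons of Kif13a, Kif1b and Kifc3, in red, lie above the line, and the 67 introns, with none called, cluster at low PSI.

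The N2A table lists 21 kinesin exons of 3 to 27 nt, of which 10 had enough reads and 3, those of Kif1c, Kif3a and Kifc3, were alternative enough to test. Several were included in nearly all transcripts. The 18 nt exon of Kif1b averaged 97.9% in siNT and 98.9% in siQk, and the 21 nt exon of Kif26a, an atypical kinesin-11, 99.5% and 99.6%. Others were skipped in nearly all transcripts: the 27 nt exon of Kif5c, a neuronal kinesin-1 heavy chain, averaged 0.0433% in siQk with no inclusion in siNT on 441 to 1292 reads, and a 27 nt exon of Kif1b averaged 0.207% and 0.563%. Exons of 10 nt in Kif1c, 14 nt in Kif23 and 3 nt in Kif3a had no inclusion read in any sample. At 3 reads, those zeros allow a PSI of up to 2.42 to 6.82% in Kif1c, 0.929 to 2.78% in Kif23 and 0.682 to 2.80% in Kif3a across the samples, from counting error alone. The microexons of the neuronal motors Kif1a and Kif21a could not be measured here, with at most 1 read per sample in any of them.

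Junction coverage stands in for expression of the motors, and fewer cells of a type cannot be told apart from less RNA per cell. Of the 41 kinesin genes with exon events, 34 had a mean of at least 20 reads. Only 1 of the 34, Kif21b, changed at an adjusted p under 0.05 (limma, Benjamini-Hochberg over 10851 genes), against 4.54% of all genes tested. It fell, against 1.59% of all genes that fell and 2.96% that rose. Of the 34, 25 had a log2 fold change between -0.25 and 0.25, and the median was -0.04 against 0.02 over all genes tested. In 11 of the 34 the groups did not overlap, against 26% of all genes.

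Kif21b, a kinesin-4 motor that also regulates microtubule growth in neurons, was at 11.2, 14.5 and 13.7 CPM in siNT and at 5.16, 8.24 and 8.15 CPM in siQk. Each siQk value was below each siNT value, and the means were 13.1 ± 1.76 and 7.18 ± 1.76 CPM (SD, n = 3 each). The log2 fold change, on log2(CPM + 0.5), was -0.85 ± 0.19 (SE; limma, adjusted p = 0.0441). The call did not hold without the coverage filter (limma, adjusted p = 0.0862) or without siNT 1, siNT 2, siNT 3, siQk 2 or siQk 3, where adjusted p-values in limma ran from 0.0641 to 0.15. The summed neuroblastoma and neuron markers were higher in the same siQk libraries, though Ddc, Th and Gata3 were lower, as given above. The part of the markers in this result was not tested.

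Beyond Kif21b, the motors with the largest differences did not pass the main test with all 6 samples. Calls made with a term for the replicate number are given in the closing section. The kinesin-9 motors, which are linked to cilia and flagella, had the highest positive values: Kif9 had a log2 fold change of 0.71 ± 0.20 (SE; limma, adjusted p = 0.0843) and Kif6 one of 0.52 ± 0.13 (SE; limma, adjusted p = 0.0579). Kif9 coverage was low, at 1.57 ± 0.391 CPM in siNT and 2.88 ± 0.582 CPM in siQk (SD, n = 3 each). Kif3b, the partner of Kif3a in heterotrimeric kinesin-2, had a log2 fold change of 0.48 (limma, adjusted p = 0.0813), while Kif3a itself was at 107 CPM in both groups. Leaving out siQk 1 added calls for Kif6 and Kif3b (limma, adjusted p = 0.0405 and 0.0247). On the negative side stood Kifc2 at -0.48 (limma, adjusted p = 0.108), Kif26a at -0.39 (adjusted p = 0.0632, and 0.0469 without siNT 1), Kifc1 at -0.33 (adjusted p = 0.139) and Kif17, a kinesin-2 of dendrites, at -0.30 (adjusted p = 0.341). Kif7, a kinesin-4 of the primary cilium, was at 0.28 (limma, adjusted p = 0.105). Reads of Kifc1 and Kifc5b, which are close copies, could be divided between them.

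The kinesin-1 heavy chains, the main anterograde motors, showed no call and small differences, with log2 fold changes of -0.01 in Kif5a, 0.14 in Kif5b and 0.09 in Kif5c. The motors whose exons rose were also nearly level in coverage, with log2 fold changes of 0.05 in Kif13a, 0.03 in Kif1b and 0.15 in Kifc3, none past the threshold. There were 7 members that did not reach the coverage minimum and were not tested, namely Kif12, Kif16b, Kif19a, Kif1a, Kif21a, Kif26b and Kif27. Kif12 had no read in any library, which allows up to 0.0373 to 0.113 CPM at 3 reads. Kif1a, the axonal motor of synaptic vesicle precursors, had 10 reads in siNT 3 and none elsewhere, and Kif21a had 3 reads in siNT 2 and 5 in siQk 2.

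**Figure D3:**
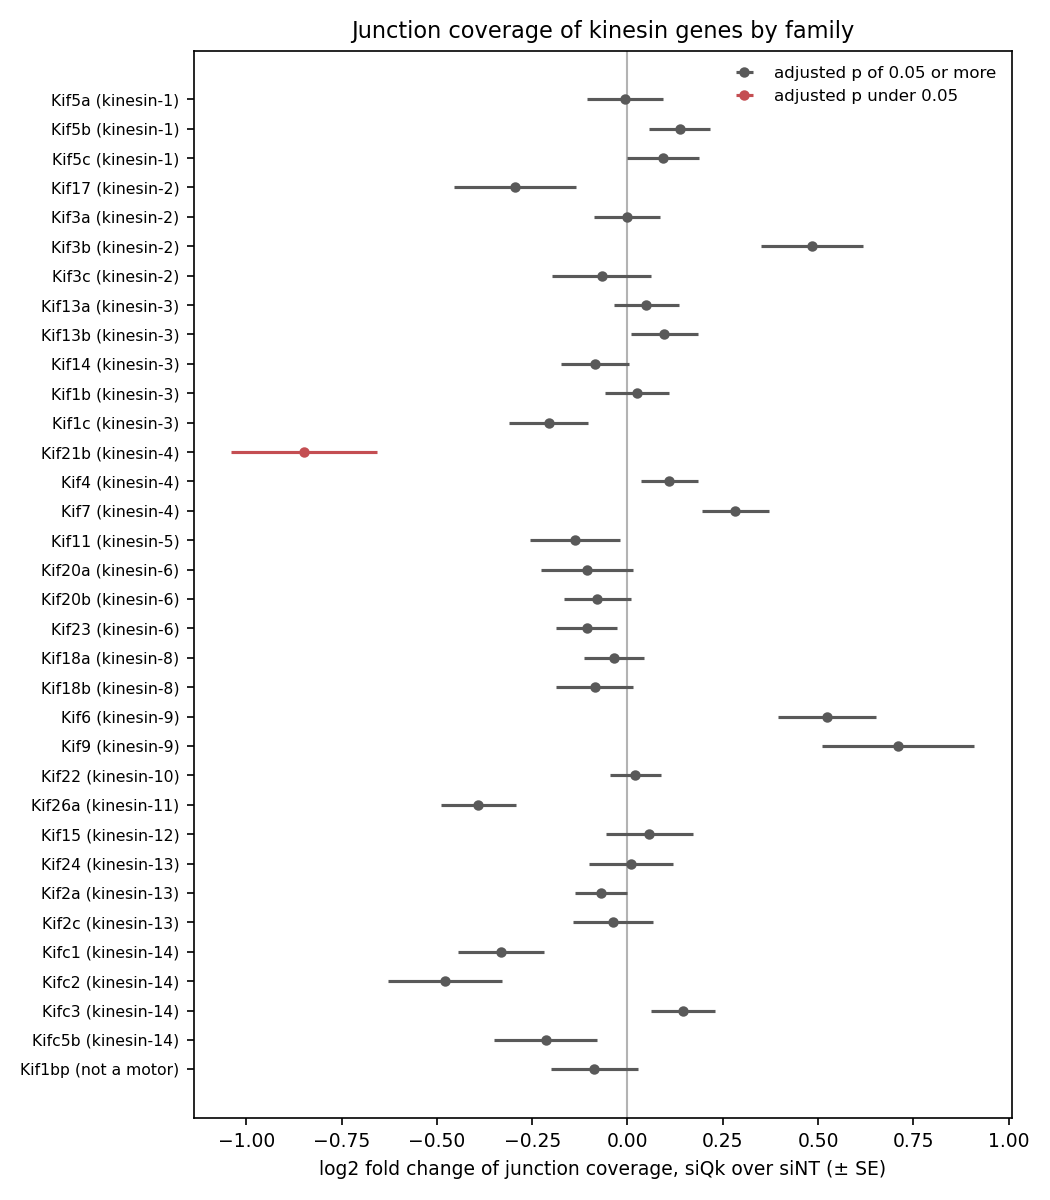
Log2 fold change of junction coverage, siQk over siNT (horizontal axis, with SE bars), for the 34 kinesin genes tested, ordered by kinesin family (vertical axis). Kif21b, in red at -0.85, is the 1 gene with an adjusted p under 0.05; 25 genes lie between -0.25 and 0.25.

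Motors reach their cargo through light chains, accessory subunits and adaptors, and a list of 48 genes for these parts was followed with the same fits. The list also holds Cenpe, which is itself a kinesin motor, of the spindle, and Kif1bp, which is counted among the kinesin genes as well; neither had a call. In them 6 of 71 tested cassette exons were called, against 1.18% of all tested exons, and the list was written with earlier results of these data known. Rises were found in 4: the 66 nt exon of Kifap3, exons of 27 and 63 nt in Ppfia1, and a 27 nt exon of Ppfia3. Ppfia1 and Ppfia3 encode liprins, scaffolds that bind kinesin-3 motors. Falls were found in a 57 nt exon of Clstn1, a calsyntenin that joins cargo to kinesin light chains, and a 156 nt exon of Grip1, a scaffold that ties glutamate receptors to kinesin-1. All 6 lengths are multiples of 3, against the 82.9% of all called exons given above.

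Kifap3 is the accessory subunit of the Kif3a and Kif3b motor, and its 66 nt exon (chr1:163912072-163912137) was included at 14.1, 16.9 and 15.2% in siNT and at 27.5, 36.3 and 34.7% in siQk. The values did not overlap, and the mean rose from 15.4% ± 1.38 to 32.8% ± 4.68 (SD, n = 3 each; limma, adjusted p = 0.0155). The exon holds the stop codon of the 1 coding transcript that has it. The call was lost without siNT 1, siNT 2, siNT 3, siQk 2 or siQk 3, with limma adjusted p-values of 0.0635 to 0.0934. Grip1 fell from 97.0% ± 1.5 to 55.8% ± 8.05 (SD, n = 3 each; limma, adjusted p = 0.000145), on 201 to 959 reads. The Ppfia1 63 nt exon rose from 33.3% ± 1.74 to 63.6% ± 1.15 (SD, n = 3 each; limma, adjusted p = 0.000619).

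Of the adaptors' other events, no intron of 95 and no alternative 5′ site of 54 was called in limma, where 6 and 2 had an unadjusted p under 0.05. Over all tested events 887 of 17664 introns and 385 of 7498 alternative 5′ sites had such a p-value. A pair of alternative 3′ sites in Cask, a scaffold in the cargo complex of Kif17, was called, the 2 of 70 being the same choice. Use of the site that leaves out 15 nt rose from 79.9% ± 1.86 to 92.2% ± 3.75 (SD, n = 3 each; limma, adjusted p = 0.0103), and the call was lost without siNT 2, siNT 3 or siQk 1 (limma, adjusted p-values of 0.0913, 0.0650 and 0.0747). In junction coverage 3 of 40 adaptor genes fell and none rose, against 1.59% of all genes that fell. They were Hook3, a microtubule linker, at a log2 fold change of -0.69 (limma, adjusted p = 0.0182), Grip1 at -0.50 (limma, adjusted p = 0.0155) and Clstn3, another calsyntenin, at -0.41 (limma, adjusted p = 0.0314). Without siNT 2, siQk 2 or siQk 3 none of the 3 passed, and without siNT 1 or siNT 3 only Hook3 did.

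The neuron comparison covers microexons of up to 30 nt and asks which are measured at another level when translation is blocked. Cycloheximide stops translation and with it the decay of transcripts with early stop codons. The deposited values combine the replicates, so they have no SD and no test here, and their read depth is unknown. Among 19 kinesin microexons in 12 genes, 3 were counted as different, which asks for a difference of 10 points or more and a probability no lower than 0.9 in the authors' deposited table. That rule holds for 9.4% of all 2469 microexons there, 7.17% lower and 2.23% higher with cycloheximide. Of the 19, 14 had lengths that are multiples of 3, including the 3 counted, against 56.9% of all microexons in that table and 72% of all those counted. In untreated neurons 7 were above 98%, 4 were under 2% and 8 lay between.

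Kif21a, a kinesin-4 motor of axons, had the widest difference: in the authors' deposited table its 21 nt exon stood at 95.3% untreated and at 41.9% with cycloheximide, with a probability of 1.0. This exon is coding in 3 annotated transcripts and skipped in 3. In the same gene a 15 nt exon (chr15:90948324-90948338) lay just outside the rule, at 12.0% and 2.10% in the authors' deposited table. The 21 nt exon was thus the main form in untreated neurons, while the 15 nt exon was a minor one.

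Kif1a had 4 microexons in the comparison, 3 of them alternative, and all 3 were lower with cycloheximide. In the authors' deposited table its 24 nt exon stood at 40.6% untreated and 19.4% treated. The 27 nt exon that shares its neighbouring exons stood at 14.2% and 5.6%, and the 27 nt exon nearer the start of the gene at 33.9% and 24.3%, in the authors' deposited table. These last 2 had a probability of 1.0 but had differences of -8.64 and -9.56 points, just short of the 10 required. The remaining Kif1a microexon, of 18 nt, was at 99.9% untreated and above 99.9% treated in the authors' deposited table. Its counterpart of the same length in Kif1b, identical at 9 of 18 bases, was at 91.3% and 88.3%.

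Kif17 was the 1 kinesin counted in the other direction. A segment of 3 nt (chr4:138294088-138294090) was at 17.2% untreated and 54.3% with cycloheximide in the authors' deposited table, with a probability of 0.916. No annotated coding transcript has an exon with these ends, and 3 skip the segment. It does not pass at a probability of 0.95. The 13 nt exon of Kif13b, a kinesin-3 motor, was at 88.7% and 95.5% with a probability of 0.745 in the authors' deposited table, and so was not counted.

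**Figure D4:**
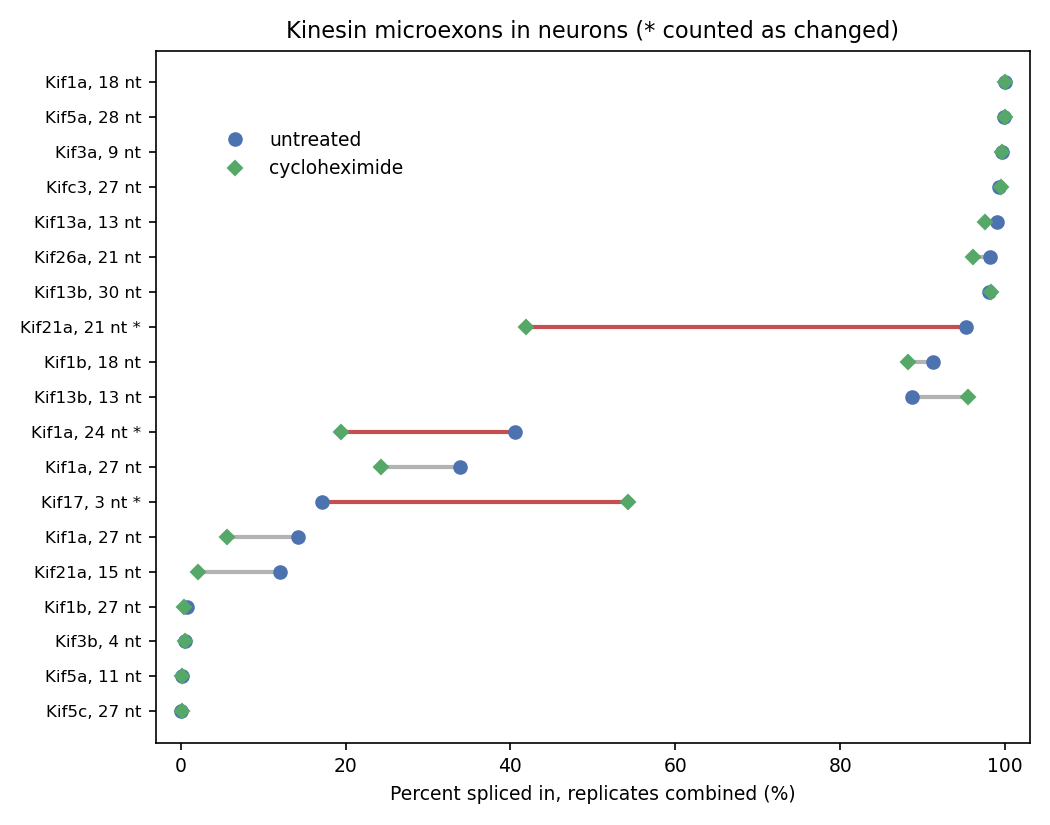
PSI in percent (horizontal axis) of the 19 kinesin microexons in untreated neurons (blue dots) and neurons given cycloheximide (green diamonds), replicates combined, ordered by untreated PSI. The lines of the exons counted as different, marked with an asterisk, are red: Kif21a 21 nt and Kif1a 24 nt lie lower with cycloheximide and Kif17 3 nt lies higher.

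Exons measured in both experiments could be set side by side, though the 2 tables were made separately and their levels are not on a shared scale. The Kifc3 27 nt exon, at 68.8% in siNT and 94.4% in siQk, was at 99.3% in untreated and 99.5% in treated neurons in the authors' deposited table. The Kif3a 9 nt exon was at 99.7% untreated and 99.6% treated. The Kif26a 21 nt exon was at 98.2% and 96.2%, and the Kif5c 27 nt exon was at 0.0757% and 0.194%. In Kif1b the 18 nt exon, at 97.9% in siNT and 98.9% in siQk, was at 91.3% untreated and 88.3% treated. The 27 nt exon of Kif1b was at 0.785% and 0.390%. Exons of 28 nt in Kif5a and 30 nt in Kif13b averaged 100% in both N2A groups. In untreated neurons they were at 99.9% and 98.0%, and in treated neurons at 99.9% and 98.3%. Neither Kif13a 105 nt nor Kif1b 42 nt is in the neuron table, which ends at 30 nt.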

How the data were processed

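For each event and N2A sample the authors deposited PSI in percent. Per the file headers, a quality cell of another kind, in text form, holds the inclusion and exclusion reads. The authors also deposited the neural microexon list (PSI as a fraction, differences as a score) and the neuron comparison (PSI as a fraction, difference and probability as a score, replicates combined). The name of the neuron table lists the control first, and its first PSI column was read as untreated. What software made the tables is not stated in the labels used here. Positions refer to mm10, as the submitters' processing notes give it.

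Events with 10 or more reads in every N2A sample and a mean PSI from 2 to 98 were tested with limma, version 3.58.1 (R 4.3.3), on the log2 of (inclusion reads + 0.5) over (exclusion reads + 0.5), by the robust two-sided moderated test with a variance trend. Adjustment ran over all events of a class. For junction coverage, exon-event reads were summed by gene and scaled to CPM, and limma compared log2(CPM + 0.5) for genes averaging 20 or more reads. A read can serve several events, and fold changes understate those of low genes. In data simulated for the siQk against siNT comparison of 12217 exons, 47% of 100 exons changed by 1 on the log2 scale and 90% of 100 changed by 2 were recovered. No sample is a copy of another: pairs within a group differed by 8.74 to 74.8 times the variance per gene of independent reads. Reads counted in more than 1 event can raise these ratios.

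The members and gene lists were chosen with earlier results of these data known. Named were the called events and genes, the 15 events with the smallest p, microexons with enough reads or in the other tables, and the 10 genes with the largest coverage differences; any other event was chosen after its values were seen. Exons were matched by both ends to exons of the protein-coding transcripts in GENCODE M21, and transcripts of other types were not searched. Other tools were Python 3.11.15, pandas 2.3.3, matplotlib 3.10.9 and data.table in version 1.17.8. Alternatives are given in the closing section. Intron sequences were not used here.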

Additional observations from a re-analysis of the deposited data

How the results depend on the processing

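Against 3 kinesin splicing calls, limma on PSI made 6 and weights for sampling variance 5; leaving out 1 sample gave 2 to 4. The 8 adaptor splicing calls became 5 to 8 with 1 sample left out. The single kinesin coverage call became 0 without the coverage filter and 0 to 3 with 1 sample left out, and the 3 adaptor coverage calls became 0 to 3. In the neurons, 2 of 3 exons remained at a probability of at least 0.95 and 3 at a difference of at least 15 points. Of 433 values for 37 single events and genes, 386 kept their direction and side of the threshold, 31 lost a call, 16 gained one and 0 changed sign. For splicing events the direction is that of the difference of mean PSI. Settings that left out no sample do not alter this difference, so its sign could not change there. Many of these events and genes were picked for a call or a small p, so the count of sign changes says little about direction.

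Replicate numbers are shared between siNT and siQk, but the samples of a number did not deviate together throughout: their correlations were 0.139, 0.0193 and 0.116 in splicing and 0.479, -0.136 and 0.480 in coverage. In splicing each siNT sample correlated best with its own number; in coverage only siNT 1 did. With the replicate block, coverage calls numbered 7 in kinesin genes, 6 in adaptor genes and 1551 of all genes, against 493 without it, and splicing calls 4 in kinesins and 8 in adaptors. The kinesin coverage calls were then Kif21b, Kif9, Kif6, Kifc2, Kif26a, Kifc1 and Kif7, the last 6 at limma adjusted p-values of 0.0120 to 0.0478, and the added splicing call was the 249 nt exon of Kif1b (limma, adjusted p = 0.0389).

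In the N2A cells 11 of the 21 kinesin microexons lacked 10 reads in some sample, 8 of them in Kif1a and Kif21a, genes with almost no reads.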
